A study of Mus musculus with 48 samples.

Results

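Stellate cell and fibrosis matrix genes were followed in mouse liver as a list of 37 genes, taken by symbol out of the 49315 genes of the deposited expression table. All 37 were present. The list was made by name and not by any measured value, and 36 of its genes reached 1 TPM (a level scaled to a fixed total in each library) in at least 6 of the 48 livers, the level required for testing; Lox, a lysyl oxidase that crosslinks collagen, reached it in 3 livers. TPM takes gene length into account, so levels of different genes can be set side by side.

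Hepatic stellate cells are the vitamin A storing pericytes of the liver sinusoid. When activated by injury they become myofibroblasts, which contract, respond to PDGF and TGF-beta, and lay down fibrillar collagens together with the proteoglycans, crosslinking enzymes and protease inhibitors that make a scar. Several of the genes are also read in portal fibroblasts, vascular smooth muscle, endothelium or macrophages, so the list marks a matrix programme rather than a single cell type.

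The livers came from male and female C57BL/6J mice on feed low in fat (LFD) or high in fat (HFD). Each diet was combined with vehicle or with a weekly mixture of 10 ng/kg TCDD, 80 ng/kg PeCDF and 140 ng/kg PCB126, chlorinated compounds that activate the aryl hydrocarbon receptor. The mice were sampled after 12 weeks, and poly(A) RNA was sequenced from 6 livers in each of the 8 groups of sex, diet and exposure. Strain was shared by all groups, and the labels name no genetic change. Age, cages and a possible split of the diets into cohorts were not given in the sources used here. As a consequence, p-values reflect the spread among these livers alone. The table holds TPM only, and its sequencing depth is unknown.

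A few libraries held transcripts of other tissues, and they bear on Des, the intermediate filament gene desmin, which stellate cells, smooth muscle and skeletal muscle all use. The summed TPM of 15 skeletal muscle markers was 24483 in male HFD mixture replicate 6, 9164 in female LFD vehicle replicate 3 and 1934 in female LFD mixture replicate 3, against group medians of 17.4 to 62.0. Des stood at 435, 169 and 38.2 TPM in these 3 livers. In male LFD vehicle replicate 4 the muscle sum was 777 and Des was 16.5 TPM. Over all 48 livers the median of Des was 4.45 TPM. The 15 muscle markers do not include Des. Female LFD mixture replicate 3 also held a summed 1664 TPM of 7 adrenal cortex markers, whose group median was 4.93 TPM. The member values as a whole also stood high in some of these livers: the mean log2(TPM + 1) over the 36 tested members was 3.61 in female LFD vehicle replicate 3 and 3.66 in female LFD mixture replicate 3, the highest of their groups, whose lowest livers were at 2.84 and 2.74. In male HFD mixture replicate 6 it was 3.95, inside the range of its group. In male LFD vehicle replicate 4 it was 3.02, the highest of its group, whose lowest liver was at 2.64. Male LFD vehicle replicate 5 had a muscle sum of 366, Des at 8.11 TPM and a member mean of 2.98. The total of members called in each diet, sex and diet-by-sex comparison is therefore also given without the 3 livers of highest muscle sum. Male LFD vehicle replicates 4 and 5 stay in those counts.

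**Figure D1:**
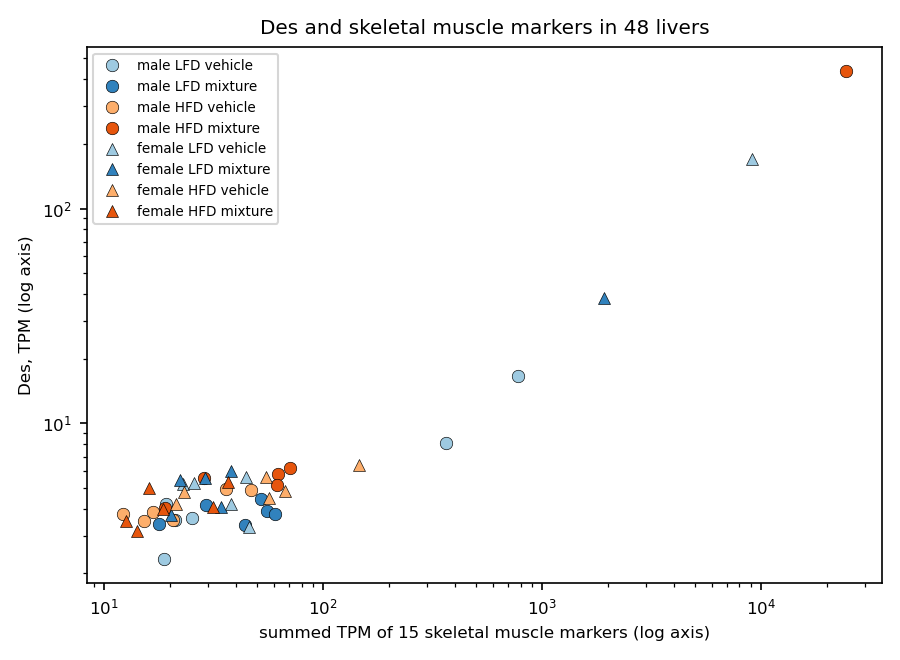
Des (TPM, log axis) against the summed TPM of 15 skeletal muscle markers (log axis) in 48 livers; each point is 1 liver, coloured by group, circles for males and triangles for females. The 3 livers with Des at 435, 169 and 38.2 TPM are also the 3 with the highest muscle sums.

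The members spanned a wide range of levels. Dcn (decorin) and Ecm1 (extracellular matrix protein 1) had the highest medians over the 48 livers, 163 and 155 TPM. Tgfbi and Sparc followed at 58.1 and 52.2 TPM. The fibrillar collagen genes were lower, with medians of 12.7 TPM for Col3a1, 9.07 for Col1a1 and 6.30 for Col1a2. Timp1 (0.836 TPM) and Lox (0.294 TPM) were lowest. Timp1 was at or above 1 TPM in 18 HFD livers and 1 LFD liver, so it passed the test filter through the HFD groups. Its diet differences and its sex difference on HFD are given as a description, and counts of such comparisons are also given without it. The other 35 tested members reached 1 TPM in 6 or more LFD livers of both sexes together, with Thbs1 in 6 and Col5a2 in 9. The cell type behind the label was present in every liver: a list of 20 quiescent stellate cell genes summed to between 167 and 442 TPM. Hand2, the transcription factor that marks stellate cells in adult liver, ranged from 6.00 to 13.4 TPM over all livers. Among LFD vehicle livers it was one of the members called higher in females than in males. In whole liver, fewer cells of a type and less RNA per cell cannot be told apart.

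High-fat diet was accompanied by higher matrix gene expression in males. Among vehicle males, 29 of the 36 tested members rose on HFD and 0 fell (limma on log2(TPM + 1), adjusted p under 0.05 over all genes tested), where 25.6% of all tested genes rose and 5.82% fell. Among mixture males, 33 rose and 0 fell, where 31.7% of all tested genes rose and 6.92% fell. The median difference of the members was 0.72 in vehicle males, beside 0.11 for all genes, and 1.21 in mixture males, beside 0.15. All 29 members that rose in vehicle males also rose in mixture males; Acta2, Fbn1, Reln and Timp2 passed the test in mixture males alone, a difference between exposures that is tested below. Without Timp1, 28 and 32 of 35 members rose, with medians of 0.72 and 1.19. Leaving out the 3 livers with muscle transcripts gave 31 and 33 of 36 members higher and 0 lower. None of the 3 is a vehicle male. The differences in vehicle males therefore stayed the same, and only the shared estimate of spread and the adjustment changed.

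The scale of the libraries bears on these counts. Rescaling each library by a trimmed mean moved the all-gene median of the male diet difference by -0.11 in vehicle and by -0.17 in mixture livers. It also moved the share of called genes that were higher from 81.5% to 56.7% and from 82.1% to 45.1%. After rescaling, 25 members were higher and 0 lower in vehicle males, where 13.8% of all genes were higher and 10.5% lower. In mixture males 31 were higher and 0 lower, where 14.2% of all genes were higher and 17.2% lower. The members' medians were then 0.60 and 1.00, with all-gene medians of 0.01 and -0.02. Bgn, Ecm1, Pdgfra and Tgfb1 were no longer called in vehicle males, nor Ecm1 and Reln in mixture males.

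All 5 fibrillar collagen genes rose in males on HFD, with or without the mixture. Col1a1, which encodes the alpha-1 chain of type I collagen, the main scar protein, measured 3.00 at lowest, 5.41 at the median and 6.31 TPM at highest in LFD vehicle males, and 22.1, 27.1 and 29.7 TPM in HFD vehicle males. The groups did not overlap, and the difference was 2.20 (SE 0.28, adjusted p = 3.49e-08, limma). Under the mixture, Col1a1 went from 2.61, 4.07 and 4.74 TPM on LFD to 22.2, 44.7 and 90.8 TPM on HFD, a difference of 3.15 (SE 0.28, adjusted p = 6.67e-12). The HFD mixture livers were the most spread of the male groups, from 22.2 TPM in replicate 6 to 90.8 TPM in replicate 5.

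Col3a1, the gene for type III collagen, measured 5.70, 8.90 and 12.8 TPM (lowest, median, highest) in LFD vehicle males and 26.8, 29.4 and 33.4 TPM in HFD vehicle males. That difference was 1.72 (SE 0.23), and in mixture males it was 2.72 (SE 0.23), where the livers ranged from 3.98 to 8.29 TPM on LFD and from 27.5 to 84.1 TPM on HFD. No HFD liver overlapped an LFD liver in either exposure. Col1a2, the partner chain of type I collagen, rose by 1.45 (SE 0.21) and 2.37 (SE 0.21). Col5a1 and Col5a2, which encode type V collagen that nucleates the fibrils, rose by less, 0.81 and 0.83 in vehicle and 1.13 and 1.38 in mixture males. Col3a1 and Col5a2 are neighbours on chromosome 1 (GRCm38, chr1:45311538-45349706 and chr1:45374321-45503282).

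The bases upstream of some of these starts can be read from RefSeq. Of the 37 members, 24 had a RefSeq promoter entry (GRCm38.p6). Among those whose 250 upstream bases held no annotated exon, Col3a1, Timp1 and Col6a3 had the largest diet differences in mixture males, and their windows are shown for that reason. Capitals mark 5 short motifs on either strand. They are GCGTG (the core bound by the aryl hydrocarbon receptor), CCAAT (the box bound by NF-Y), TATAAA (the TATA box), GGGCGG (the box bound by Sp1) and CAGAC (the Smad core of TGF-beta signalling).
Col3a1 (chr1:45311288-45311537, plus strand): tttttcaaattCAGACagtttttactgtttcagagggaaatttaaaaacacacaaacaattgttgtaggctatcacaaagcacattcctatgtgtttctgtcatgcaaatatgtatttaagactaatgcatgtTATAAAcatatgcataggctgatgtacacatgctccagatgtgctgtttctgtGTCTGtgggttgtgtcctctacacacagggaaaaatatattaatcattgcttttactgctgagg
Timp1 (chrX:20869916-20870165, plus strand): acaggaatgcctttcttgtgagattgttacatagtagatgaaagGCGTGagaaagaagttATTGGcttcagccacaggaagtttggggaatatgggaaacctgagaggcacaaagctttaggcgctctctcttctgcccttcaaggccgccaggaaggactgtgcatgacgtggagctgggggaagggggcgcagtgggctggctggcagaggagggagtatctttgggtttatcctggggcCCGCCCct
Col6a3 (chr1:90843972-90844221, minus strand): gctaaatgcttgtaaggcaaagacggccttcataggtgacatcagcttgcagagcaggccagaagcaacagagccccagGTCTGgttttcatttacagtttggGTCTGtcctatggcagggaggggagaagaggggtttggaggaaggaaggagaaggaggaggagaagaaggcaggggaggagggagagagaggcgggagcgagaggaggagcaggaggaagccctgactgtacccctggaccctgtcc
The window of Timp1 held the receptor core, while those of Col3a1 and Col6a3 did not; both of these held the Smad core. Over the 24 member genes with an entry, 41.7% held GCGTG in at least 1 window, beside 28.2% of all 32851 windows. The other shares were 33.3% and 33.8% for CCAAT, 16.7% and 12.4% for TATAAA, 58.3% and 32.7% for GGGCGG, and 50.0% and 42.2% for CAGAC. A gene with several windows counts once among the members, whereas every window counts in the whole set, and the Sp1 box can overlap the receptor core. These matches describe the letters in the windows only.

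**Figure D2:**
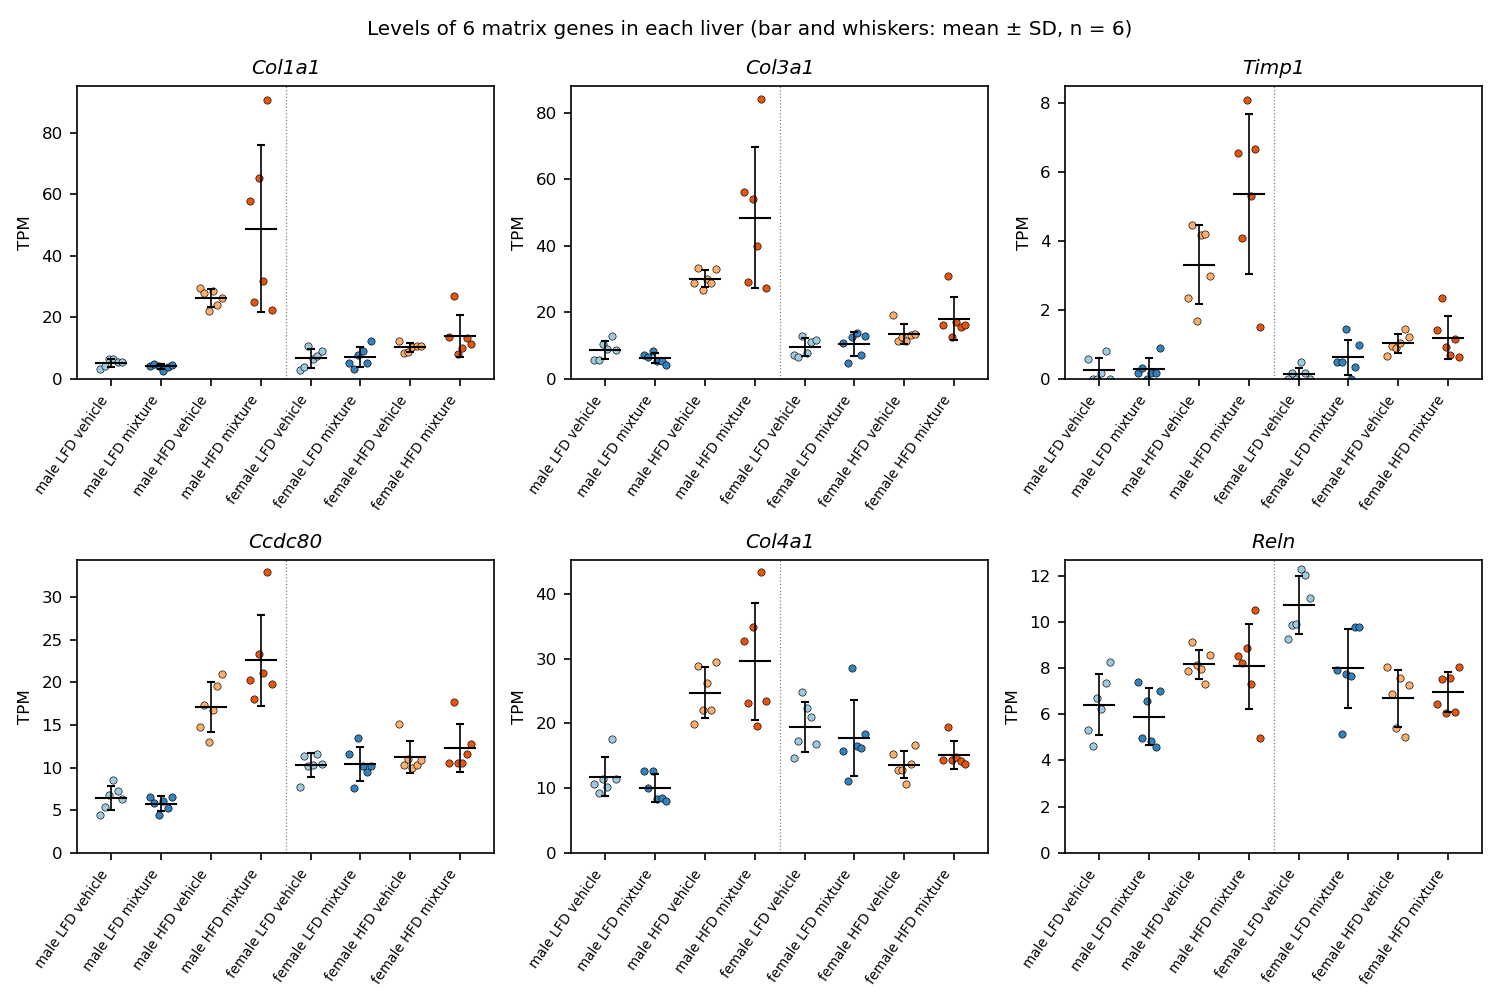
Levels (TPM) of Col1a1, Col3a1, Timp1, Ccdc80, Col4a1 and Reln in each liver of the 8 groups; points are livers, the horizontal bar is the mean and the whiskers are the SD (n = 6). Male HFD livers lie above male LFD livers in Col1a1, Col3a1, Timp1, Ccdc80 and Col4a1, while Reln is highest in LFD vehicle females.

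Of the 7 genes for basement membrane, microfibrillar and other collagens, 6 rose in males in each exposure. Col4a1, a main chain of the basement membrane, measured 9.23, 11.0 and 17.7 TPM in LFD vehicle males and 19.8, 24.2 and 29.5 TPM in HFD vehicle males, a difference of 1.03 (SE 0.17). Its head-to-head neighbour Col4a2 rose by 0.75 (SE 0.18). Both genes start on chromosome 8, at chr8:11198423-11312826 on the minus strand and chr8:11312805-11449287 on the plus strand. The 3 chains of type VI collagen moved alike, Col6a1, Col6a2 and Col6a3 rising by 0.67, 0.75 and 0.84 in vehicle and by 1.43, 1.42 and 1.43 in mixture males. Col14a1, which binds to fibrils, rose by 0.85 and 1.19. Col15a1 was the exception, at -0.09 (SE 0.22) in vehicle and 0.49 (SE 0.22, adjusted p = 0.0716) in mixture males, neither past the threshold.

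The proteoglycan, microfibril and matricellular genes rose in 9 of 11 cases in vehicle males and in 11 of 11 in mixture males. Ccdc80, which encodes a secreted matrix-binding protein, had the smallest p of all members in both. It measured 4.43, 6.58 and 8.52 TPM in LFD and 13.0, 17.1 and 21.0 TPM in HFD vehicle males, a difference of 1.28 (SE 0.14, adjusted p = 9.96e-10, limma). Under the mixture it measured 4.38, 5.93 and 6.60 TPM on LFD and 18.1, 20.7 and 33.0 TPM on HFD, a difference of 1.78 (SE 0.14). Neither pair of groups overlapped.

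Thbs1, the gene for thrombospondin 1, which can activate latent TGF-beta, rose by 1.49 (SE 0.20) in vehicle males, from a median of 0.872 to 3.62 TPM, with 1 HFD liver at 10.1 TPM. Dcn and Lum, neighbouring genes for small leucine-rich proteoglycans that space collagen fibrils (chr10:97479609-97518143 and chr10:97565128-97572703), rose by 0.68 and 0.54 in vehicle and by 1.08 and 1.47 in mixture males. Dcn went from 104, 113 and 131 TPM to 157, 182 and 213 TPM in vehicle males, and no HFD liver was as low as an LFD liver. Sparc, a collagen-binding glycoprotein gene, rose by 0.91 and 1.55, and Ecm1 by 0.27 and 0.29, the smallest called differences. Fbn1 (fibrillin 1) and Reln (reelin, secreted by stellate cells) were at 0.35 and 0.32 in vehicle males, adjusted p = 0.0795 and 0.06, and at 0.87 and 0.39 in mixture males, where they rose. Without the 3 livers with muscle transcripts Fbn1 and Reln were also called in vehicle males, adjusted p = 0.0266 and 0.043 (limma). None of those livers is a vehicle male. Both differences thus stayed the same, and the calls came from the changed shared estimate of spread and the adjustment.

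Of the crosslinking and turnover genes other than Timp1, 3 of 4 tested rose in vehicle males and 4 of 4 in mixture males. Timp1, the inhibitor of matrix metalloproteinases, was listed at 0 in some LFD livers and had medians of 0.0824 TPM in vehicle and 0.165 TPM in mixture males on LFD. On HFD it measured 1.68, 3.57 and 4.47 TPM in vehicle and 1.51, 5.92 and 8.09 TPM in mixture males. All HFD values lay above all LFD values, and the differences were 1.77 (SE 0.23) and 2.24 (SE 0.23) on the log2(TPM + 1) scale, which understates the change of so low a gene. Loxl2 and Loxl1, which crosslink collagen and elastin, rose by 0.86 and 0.64 in vehicle and by 1.40 and 1.09 in mixture males. Mmp2, a gelatinase gene, rose by 0.74 and 1.35. Timp2 was at 0.35 (adjusted p = 0.109) in vehicle males and rose by 0.92 in mixture males. Lox, left out by the filter, had medians of 0.176 and 0.611 TPM in LFD and HFD vehicle males, and 0.106 and 0.803 TPM in LFD and HFD mixture males. With no filter on low values its difference was 0.41 (adjusted p = 0.117) in vehicle and 0.48 (adjusted p = 0.0403) in mixture males.

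Myofibroblast and receptor genes gave a mixed result in males. Vim (vimentin) rose by 0.75 and 1.24, Tagln (transgelin, an actin-binding protein) by 0.57 and 0.83, and Pdgfrb, the receptor through which PDGF drives stellate cell growth, by 0.63 and 1.26. Pdgfra rose by 0.37 and 0.73 and Tgfb1, the main profibrotic cytokine gene, by 0.42 and 0.67. Acta2, the smooth muscle actin gene used as the standard mark of activated stellate cells, measured 3.12, 6.15 and 12.3 TPM in LFD and 7.11, 8.67 and 10.2 TPM in HFD vehicle males. These groups overlapped, and the difference was 0.38 (SE 0.31, adjusted p = 0.394). In mixture males Acta2 rose by 1.08 (SE 0.31, adjusted p = 0.00472). HFD mixture replicate 6, one of the livers with muscle transcripts, held its highest value, 22.6 TPM, and without those 3 livers Acta2 rose by 0.87 (adjusted p = 0.0146). Des and Hand2 passed in neither exposure: Des was at -0.30 (SE 0.70) and 1.41 (SE 0.70), the latter being 0.39 (SE 0.22) without the 3 livers, and Hand2 at 0.10 and 0.17.

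Counting members whose HFD livers all lay above all LFD livers gave 22 of 36 in vehicle males, beside 13.4% of all tested genes, and 30 of 36 in mixture males, beside 12.9%. Without Timp1 the counts were 21 and 29 of 35. Without the livers with muscle transcripts the count in mixture males was again 30 of 36. The 22 in vehicle males could not change, as none of those livers is a vehicle male.

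**Figure D3:**
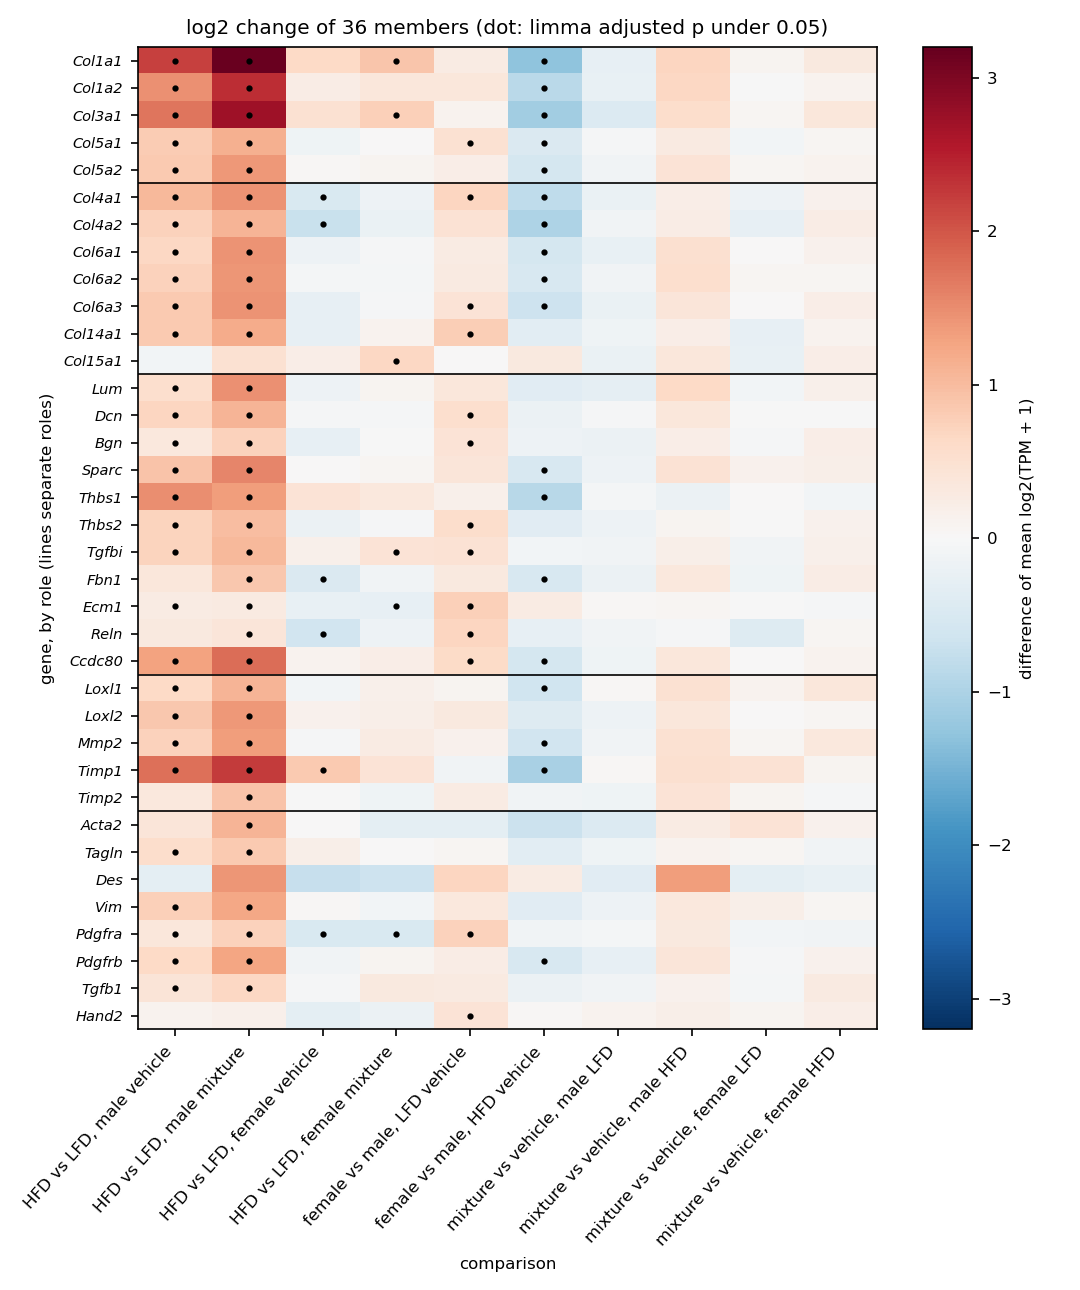
Differences of mean log2(TPM + 1) for 36 members (rows, ordered by role) in 10 comparisons (columns); red is higher in the first-named group, blue lower, and a dot marks limma adjusted p under 0.05. The columns for HFD in males carry 29 and 33 dots and those for the mixture carry 0.

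In females the diet difference was small. In vehicle females 1 member rose and 5 fell on HFD, where 14.4% of all tested genes rose and 13.5% fell, and the members' median was -0.05 beside -0.01 for all genes. In mixture females 4 rose and 2 fell, where 11.5% rose and 7.74% fell, with a median of 0.02. Read against these backgrounds, the members' shares in females were near or below those of other genes. Leaving Timp1 out, 0 members rose and 5 fell in vehicle females. Without the 3 livers with muscle transcripts, 3 members rose and 4 fell in vehicle females, where Thbs1 and Col1a1 joined Timp1 and Ecm1 joined those that fell. Thbs1 was at 1.76 TPM in female LFD vehicle replicate 3, the highest of its group and among the livers left out. In mixture females 5 then rose, Timp1 being added, and 2 fell.

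Timp1 was the member called higher in vehicle females, with the limit named above. It was listed at 0 in some LFD livers, with a highest value of 0.474 TPM, and measured 0.670, 0.984 and 1.45 TPM on HFD, a difference of 0.84 (SE 0.23). The 5 that fell were Reln, Col4a2, Pdgfra, Fbn1 and Col4a1. Reln fell from 9.26, 10.5 and 12.3 TPM to 5.00, 7.06 and 8.05 TPM with no overlap, a difference of -0.62 (SE 0.13). Col4a2 fell by 0.70 (SE 0.18), Pdgfra by 0.48 (SE 0.14), Fbn1 by 0.46 (SE 0.16) and Col4a1 by 0.48 (SE 0.17). Fbn1 and Col4a1 were lost without the livers with muscle transcripts, each at adjusted p = 0.0532.

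In mixture females Col1a1 (0.89, SE 0.28), Col3a1 (0.77, SE 0.23), Col15a1 (0.66, SE 0.22) and Tgfbi (0.43, SE 0.12) rose, and Pdgfra (-0.49, SE 0.14) and Ecm1 (-0.27, SE 0.09) fell. Col1a1 measured 3.04, 6.48 and 12.2 TPM on LFD and 7.94, 12.3 and 27.0 TPM on HFD, so the groups overlapped. Replicate 2 of the HFD mixture females held the highest value, 27.0 TPM. Without that liver 3 members were called, Ecm1, Pdgfra and Tgfbi, and the same 3 without replicate 2 of the LFD mixture females.

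The difference between the sexes in the diet change was tested itself. In vehicle livers the change was smaller in females than in males for 30 of 36 members and larger for 0, where 14.8% of all tested genes had a smaller and 3.47% a larger change. In mixture livers it was smaller for 32 and larger for 0, where the shares were 13.4% and 3.65%. The members' median was -0.79 in vehicle and -1.19 in mixture livers, beside all-gene medians of -0.12 and -0.15. Rescaling moved those all-gene medians by 0.11 and 0.18 and left 23 and 27 members smaller, with 0 larger, beside 6.81% and 4.88% of all genes. The share of called genes that were larger moved from 19.0% to 46.1% and from 21.5% to 62.3%. Without the 3 livers with muscle transcripts 27 and 30 members were smaller. Without Timp1 the counts were 29 and 31 of 35. Of the members with a smaller change, 29 were called in both exposures.

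Col4a1 had the smallest p in vehicle livers: it rose by 1.03 in males and fell by 0.48 in females, a difference of -1.51 (SE 0.24, adjusted p = 1.68e-05, limma). Col4a2 (-1.45, SE 0.25), Ccdc80 (-1.17, SE 0.20), Col14a1 (-1.12, SE 0.23), Col6a3 (-1.10, SE 0.22) and Reln (-0.94, SE 0.19) followed. In mixture livers the smallest p was that of Ccdc80, at -1.57 (SE 0.20, adjusted p = 2.86e-07), and Col1a2 was at -2.00 (SE 0.30). Dcn, Col5a2, Col4a1 and Col6a1 lay between -1.62 and -1.12. Col1a1 was at -1.55 (SE 0.39) in vehicle and -2.26 (SE 0.39) in mixture livers, where its female diet differences were 0.65 and 0.89. Acta2, Col15a1, Des, Hand2, Tagln and Timp2 did not pass in vehicle livers, and Col15a1, Des, Hand2 and Tgfb1 did not in mixture livers.

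**Figure D4:**
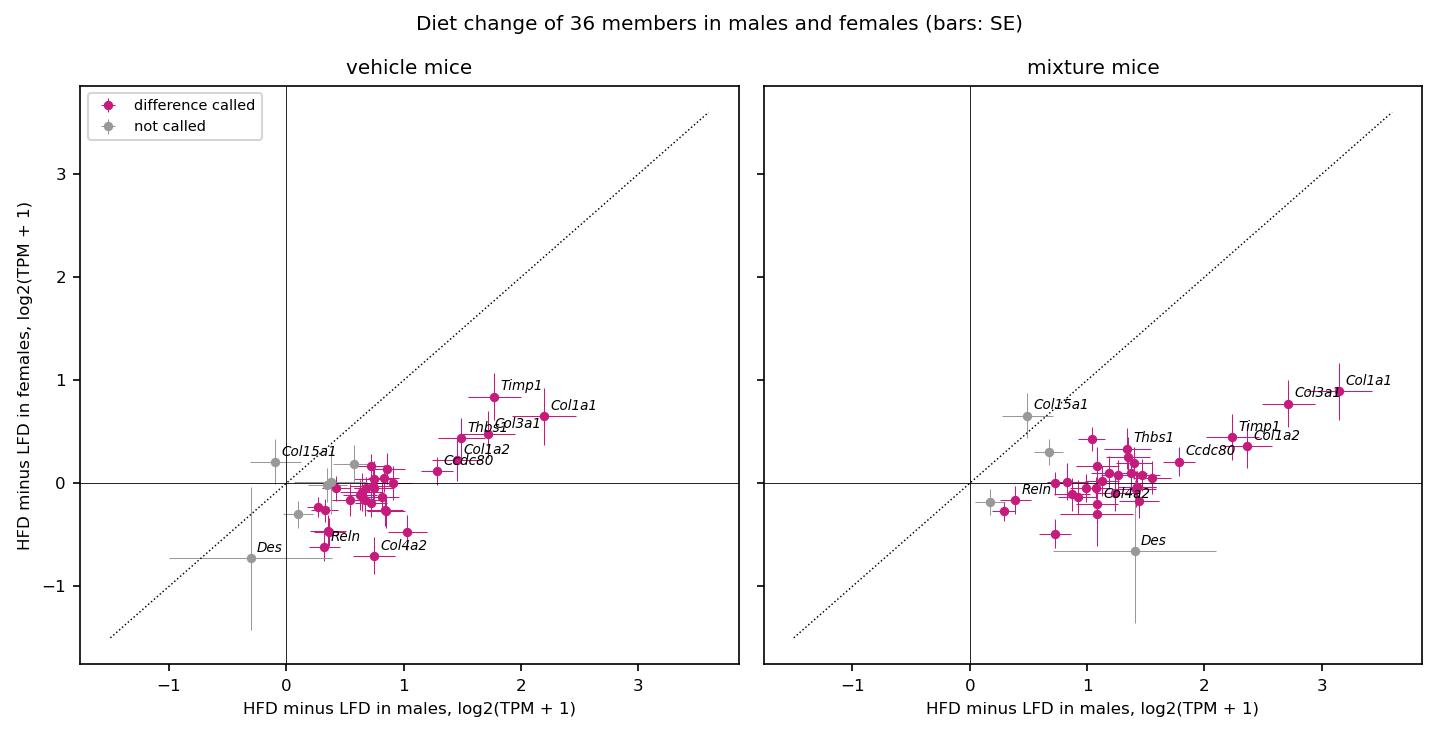
Diet difference (HFD minus LFD, log2(TPM + 1)) of 36 members in males (x axis) and females (y axis), for vehicle (left) and mixture (right) livers; bars are SE and magenta marks members whose difference between the sexes passed limma adjusted p under 0.05. Every point except that of Col15a1 lies below the dotted line of equal change.

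The order of the sexes therefore depended on diet. Among LFD vehicle livers 13 members were higher in females and 0 lower, where 17.1% of all tested genes were higher and 6.61% lower. Rescaling gave 11 members higher and 0 lower, where 10.5% of all genes were higher and 10.5% lower. It brought the share of called genes that were higher from 72.1% to 49.9%. Without the livers with muscle transcripts 12 members were higher. Ecm1 measured 162, 193 and 228 TPM in females and 82.5, 115 and 140 TPM in males with no overlap, a difference of 0.76 (SE 0.09, adjusted p = 2.21e-08, limma). Col14a1 (0.78, SE 0.16), Pdgfra (0.73, SE 0.14), Reln (0.68, SE 0.13), Ccdc80 (0.61, SE 0.14) and Dcn (0.55, SE 0.11) were higher as well. Col1a1 and Col3a1 were at 0.25 and 0.12, adjusted p = 0.567 and 0.751.

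Among HFD vehicle livers the reverse was seen, with 18 members lower in females and 0 higher, where 8.26% of all tested genes were lower and 3.53% higher. Without Timp1, which passed the test filter through the HFD groups, 17 of 35 members were lower and 0 higher. Female livers all lay below all male livers for 16 members, Timp1 among them, beside 4.0% of all genes. Col4a2 measured 7.74, 9.42 and 11.1 TPM in females and 15.9, 19.1 and 24.1 TPM in males, a difference of -0.99 (SE 0.18, adjusted p = 9.85e-05, limma). Col1a1 was at -1.29 (SE 0.28), Col3a1 at -1.12 (SE 0.23), Timp1 at -1.05 (SE 0.23), Thbs1 at -0.89 (SE 0.20) and Col4a1 at -0.81 (SE 0.17). Rescaling left 17 lower and made Ecm1 higher (adjusted p = 0.0318, limma), where 6.02% of all genes were lower and 4.24% higher. The share of called genes that were higher went from 29.9% to 41.3%. Without the livers with muscle transcripts 19 were lower and Ecm1 was higher. None of those livers is in either HFD vehicle group, so only the shared estimate of spread and the adjustment changed. Ccdc80, Col4a1, Col5a1 and Col6a3 were higher in females on LFD and lower on HFD. The vehicle groups are shared between these comparisons and the diet comparisons above.

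The mixture changed no member past the threshold. In LFD males 0 of 36 members were called, where 0.0379% of all tested genes were called, and 0 had an unadjusted p under 0.05, where 5.25% of genes did. The members' median was -0.14 beside -0.004 for all genes, and 4 of 36 differences were above 0, beside 48.4% of all genes. In HFD males 0 were called, where 0.0948% of genes were, while 19 had an unadjusted p under 0.05, where 9.39% of genes did. There the median was 0.36 beside 0.03 for all genes, and 34 of 36 differences were above 0, beside 58.9% of all genes. The members varied together within groups, as described below, so their directions are not independent of each other. Without the 3 livers with muscle transcripts 0 were called, 22 had an unadjusted p under 0.05 and the median was 0.34.

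Lum had the smallest p in HFD males. It measured 10.1, 10.8 and 14.9 TPM in vehicle and 12.1, 18.7 and 27.3 TPM in mixture livers, which overlapped, and the difference was 0.64 (SE 0.15, adjusted p = 0.0852, limma). Dcn was at 0.36 (SE 0.11, adjusted p = 0.218), Col1a2 at 0.67 (SE 0.21, adjusted p = 0.269) and Col1a1 at 0.68 (SE 0.28, adjusted p = 0.432). Lum and Dcn were called when male HFD mixture replicate 2 was left out, the liver with the lowest value of both, and were not called without the 3 livers with muscle transcripts, adjusted p = 0.0758 and 0.0736. The mean log2(TPM + 1) over the 36 members ran from 3.57 in replicate 2 to 4.37 in replicate 5 in this group, and from 3.45 to 3.67 in HFD vehicle males.

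**Figure D5:**
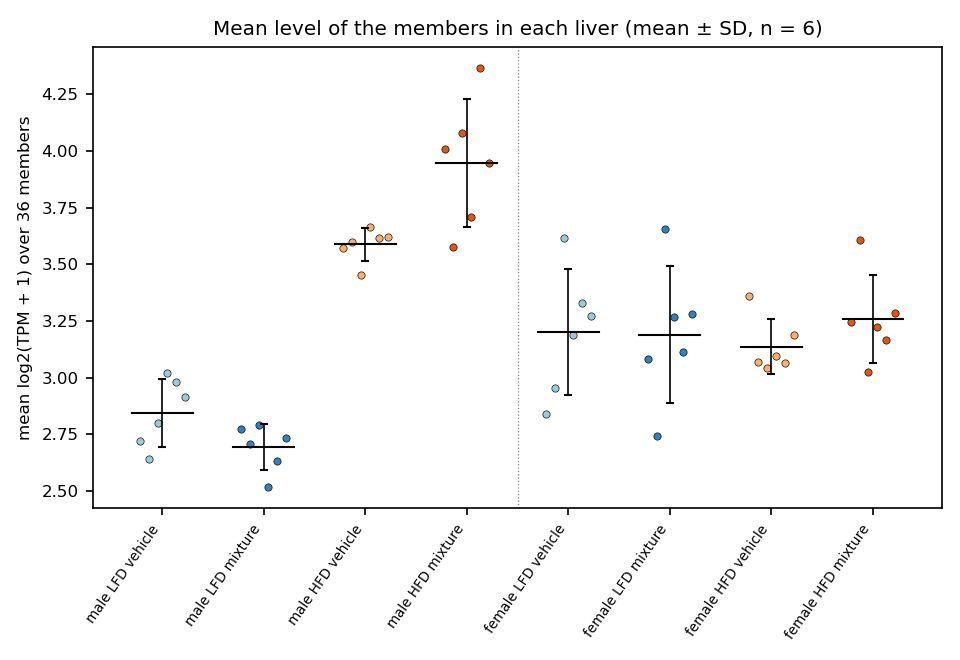
Mean log2(TPM + 1) over the 36 tested members in each liver of the 8 groups; points are livers, bars are means and whiskers SD (n = 6). Male HFD mixture livers spread from 3.57 to 4.37 and male HFD vehicle livers from 3.45 to 3.67.

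Markers of some other cell types also spread within HFD mixture males, while others had ranges nearer those of HFD vehicle males. The sum of 10 endothelial markers ran from 160 to 209 TPM, beside 176 to 241 in HFD vehicle males. That of 8 Kupffer cell markers ran from 377 to 650 TPM, beside 430 to 660. The sum of 20 quiescent stellate cell genes ran from 259 to 442 TPM, highest in replicate 5, beside 263 to 294. The summed TPM of 7 cholangiocyte markers ran from 79.7 to 545 with a median of 258, beside 114 in HFD vehicle males, and that of 10 lipid-associated macrophage markers from 176 to 792 with a median of 410, beside 204. The sum of 12 portal fibroblast markers ran from 95.3 to 227 TPM with a median of 156, beside 111; the highest value was that of replicate 6, one of the livers with muscle transcripts. Of the 10 portal fibroblast markers tested, 1 rose with the mixture in HFD males, Entpd2, a gene chosen here after its values were seen. It was at 0.69 (SE 0.15, adjusted p = 0.0404, limma) and was also called without the livers with muscle transcripts. Of the lipid-associated macrophage markers 0 of 10 were called for the mixture in HFD males, and 4 (Spp1, Trem2, Cd63 and Ccr2, also chosen after their values were seen) without the livers with muscle transcripts. The cholangiocyte and macrophage lists both hold Spp1 and both were highest in replicate 5, which also had the highest member mean. Their part in the member values was not tested.

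In females 0 members were called on LFD, where 0.0379% of genes were, and 2 had an unadjusted p under 0.05, where 9.5% of genes did. On HFD 0 were called, where 0.0126% of genes were, and 1 had an unadjusted p under 0.05, where 4.24% did. Averaged over the 4 strata 0 were called, where 0.0948% of genes were, and 4 had an unadjusted p under 0.05, where 11.7% did. Reln in LFD females was at -0.40 (SE 0.13, adjusted p = 0.324), and Timp1 at 0.47 (SE 0.23, adjusted p = 0.52). Whether the mixture difference itself changed with diet was tested in each sex. In males 0 members were called, where 0.00632% of genes were, and 17 had an unadjusted p under 0.05, where 7.32% did; Lum was at 0.93 (SE 0.22, adjusted p = 0.136) and Col6a1 at 0.76 (SE 0.22, adjusted p = 0.357). In females 0 were called, where 0.00632% of genes were, and 2 had an unadjusted p under 0.05, where 4.64% did. So the larger male diet difference under the mixture, for Acta2, Fbn1, Reln and Timp2 as for the others, did not pass the threshold, which does not show that the responses were alike.

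Other genes of the same pathways, in lists with no member in them, gave these counts for HFD in vehicle males, mixture males, vehicle females and mixture females, in that order. Among all tested genes 25.6%, 31.7%, 14.4% and 11.5% rose and 5.82%, 6.92%, 13.5% and 7.74% fell. Of 20 tested genes for collagen folding and processing, 11, 16, 2 and 3 rose and 1, 1, 6 and 5 fell. Serpinh1, the collagen chaperone gene, rose by 1.22 (SE 0.17) in vehicle and 1.54 (SE 0.17) in mixture males, and P3h1, a prolyl hydroxylase gene, fell by 0.55 (SE 0.08) in vehicle females. Of 28 other matrix genes, 12, 22, 0 and 0 rose (42.9% and 78.6% in males) and 3, 3, 9 and 2 fell. Postn (periostin) rose by 1.24 (SE 0.16) in vehicle males, and Fn1 (fibronectin) fell by 0.74 (SE 0.13) in vehicle females. Of 15 proteases and inhibitors, 7, 12, 2 and 3 rose (46.7% in vehicle males) and 1, 1, 2 and 2 fell. Mmp12, the macrophage elastase gene, rose in all 4, by 2.03 and 2.31 in males and 1.27 and 1.41 in females.

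Signalling genes gave lower shares in vehicle males. Of 24 TGF-beta pathway genes, 7, 11, 2 and 2 rose (29.2%, 45.8%, 8.33% and 8.33%) and 2, 2, 8 and 4 fell. Before rescaling, the share that rose in vehicle males was near that of all genes. After rescaling it was again 29.2%, beside 13.8% of all genes. Inhba, an activin subunit gene, fell by 1.05 (SE 0.20) in vehicle males, and Eng, the endothelial co-receptor gene, fell by 0.61 (SE 0.08) in vehicle females. Of 14 PDGF, integrin and collagen receptor genes, 4, 10, 2 and 2 rose (28.6%, 71.4%, 14.3% and 14.3%) and 0, 0, 4 and 3 fell. In vehicle males the share that rose was again near that of all genes before rescaling. Itgb5 rose by 0.41 and 0.59 in males, and Itgb3 fell by 1.12 in vehicle females. Of 19 quiescent stellate cell genes, 8, 13, 1 and 1 rose (42.1%, 68.4%, 5.26% and 5.26%) and 0, 0, 4 and 1 fell. Cygb (cytoglobin) rose by 1.13 (SE 0.14) in mixture males, and Pparg, which adipocytes and steatotic hepatocytes also use, rose in all 4 comparisons by 1.14 to 1.65. After rescaling, the counts that rose in vehicle and mixture males were 9 and 12 for collagen folding, 11 and 20 for other matrix genes, 7 and 9 for proteases, 7 and 8 for the TGF-beta pathway, 3 and 9 for receptors and 7 and 8 for quiescent stellate cell genes, where 13.8% and 14.2% of all genes rose; the lowest shares were those of receptors in vehicle males (21.4%) and of the TGF-beta pathway in mixture males (33.3%). Without the livers with muscle transcripts those counts were 13 and 16, 13 and 21, 7 and 11, 8 and 11, 5 and 10, and 11 and 15. None of those livers is a vehicle male, so the counts in vehicle males moved only through the shared estimate of spread and the adjustment. In vehicle females the shares that fell were 6 of 20 for collagen folding, 32.1% for other matrix genes, 13.3% for proteases, 33.3% for the TGF-beta pathway, 28.6% for receptors and 21.1% for quiescent stellate cell genes. In these 6 lists 0 genes were called in any of the 4 mixture comparisons; without the livers with muscle transcripts Mmp7, a protease gene chosen here after its values were seen, was called higher in HFD males (1.21, adjusted p = 0.0417, limma).

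Markers of some other liver cells also differed with diet. The counts below are for vehicle males, mixture males, vehicle females and mixture females. There 25.6%, 31.7%, 14.4% and 11.5% of all tested genes rose on HFD, and 5.82%, 6.92%, 13.5% and 7.74% fell. Of 6 tested vascular smooth muscle markers, a list that includes Des, 0, 1, 0 and 0 rose and 0 fell. Of 4 tested mesothelial markers 0, 1, 0 and 0 rose and 0 fell. The summed TPM of 9 hepatocyte markers had medians of 127928 and 86620 in LFD and HFD vehicle males and 147609 and 99081 in LFD and HFD vehicle females, so it was lower on HFD in both sexes. The sum of 20 quiescent stellate cell genes had medians of 209 and 272 in LFD and HFD vehicle males, whose ranges of 192 to 233 and 263 to 294 did not overlap, and of 280 and 255 in females. The 12 portal fibroblast markers had medians of 69.0 and 111 in males and 99.6 and 165 in females. Of 10 tested, 3 rose and 0 fell in vehicle males, with a median difference of 0.22. The share that rose was near that of all genes. In vehicle females 1 rose and 1 fell with a median of -0.15, so there the summed TPM and the median difference had opposite directions. Of 10 lipid-associated macrophage markers 8, 8, 4 and 6 rose and 1, 1, 2 and 2 fell. The order is vehicle males, mixture males, vehicle females and mixture females, and the median differences were 0.94, 1.49, 0.44 and 0.69. Their summed TPM had LFD and HFD medians of 291 and 204, 177 and 410, 355 and 181, and 270 and 199. Except in mixture males the sum was thus lower on HFD, opposite to the median difference. Of 8 Kupffer cell markers 3, 5, 0 and 1 rose and 0 fell in any of these comparisons, with median differences of 0.34, 0.66, -0.28 and 0.47. Endothelial markers, 10 genes, had medians of 172 and 205 in males and 258 and 179 in females; all 10 fell in vehicle females, among which Col4a1 and Col4a2 also fell. Their part in the member values was not tested.

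Within groups the members varied together. After each gene was centred on its group means, the 630 pairs among 36 members had a median Pearson r of 0.47 over 48 livers, and 94.0% were above 0. The members share their libraries and the TPM total, so the values are a description. The livers with muscle transcripts were included, and pairs of other genes were not measured. Col1a2 followed the other members most closely, with a median r of 0.67, before Col6a3 at 0.63 and Col1a1 at 0.62. Hand2 (0.09), Des (0.12), Ecm1 (0.12) and Acta2 (0.17) followed them least.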

How the data were processed

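Poly(A) RNA-seq of 48 livers was analysed from one deposited table of TPM values, which the authors made per gene and library; columns sum to 1000000. The submitters' processing notes name FastQC, Trimmomatic 0.36, STAR 2.5.2b, DESeq2 and GRCm38, without role or order. The counter, the annotation and the use of strand were not given in the sources used here. Testing covered the 15820 genes that reached 1 TPM in 6 or more libraries, with limma 3.58.1 (R 4.3.3) with an intensity trend on log2(TPM + 1), 1 mean for each of 8 groups, 40 residual degrees of freedom, 15 contrasts and Benjamini-Hochberg adjustment at 0.05 over all genes tested. Differences and SE are on that scale unless named as TPM. The fit was tested on simulated data. Members, lists and tests were chosen with earlier results of these data known. All members may be named, with full values for at most 6 of smallest p per comparison, for others as roles require, and of pathway lists called genes among the 2 of smallest p. Of 10 hepatocyte markers, 9 were matched. Motifs were searched in 250 bases before each RefSeq start. Alternatives were another scaling, pseudocount 0.1, no filter, a fit of the compared groups, a replicate block, and libraries left out. No 2 libraries were identical (highest r 0.983).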

Additional observations from a re-analysis of the deposited data

Results flagged for a closer look

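Some livers stood apart from the other 5 of their group in a member's TPM: the gap to the nearest liver, over the group's range, exceeded Dixon's critical value at 95% for groups of 6 in 41 of 296 combinations of gene and group (13.9%), where chance gives about 1 in 20. Values within a library are not independent of each other. Female HFD mixture replicate 2 stood apart in Col1a1 (27 TPM, nearest 13.4), Col1a2 (12.9 TPM, nearest 6.97), Col3a1 (30.8 TPM, nearest 17.2), Col4a1 (19.5 TPM, nearest 14.8), Ccdc80 (17.7 TPM, nearest 12.7), Lox (0.741 TPM, nearest 0.303) and Loxl2 (2.56 TPM, nearest 1.87). Female LFD mixture replicate 3 stood apart in Sparc (107 TPM, nearest 61), Thbs1 (2.39 TPM, nearest 1.22), Lox (1.03 TPM, nearest 0.39), Loxl1 (4.2 TPM, nearest 2.43), Loxl2 (2.77 TPM, nearest 1.59) and Des (38.2 TPM, nearest 6.02). Female HFD vehicle replicate 1 stood apart in Col3a1 (19.3 TPM, nearest 13.3), Col15a1 (7.71 TPM, nearest 5.35), Ccdc80 (15.1 TPM, nearest 11) and Lox (0.557 TPM, nearest 0.225). Male LFD vehicle replicate 4 stood apart in Col6a2 (3.78 TPM, nearest 2.26), Thbs1 (1.54 TPM, nearest 0.926), Timp2 (17 TPM, nearest 12.3) and Vim (21.5 TPM, nearest 12.2). Female LFD vehicle replicate 3 stood apart in Fbn1 (2.89 TPM, nearest 1.51) and Des (169 TPM, nearest 5.61). Male HFD mixture replicate 6 stood apart in Acta2 (22.6 TPM, nearest 12.1) and Des (435 TPM, nearest 6.18). Male HFD vehicle replicate 5 stood apart in Lum (14.9 TPM, nearest 11.6) and Thbs1 (10.1 TPM, nearest 4.41). Male LFD mixture replicate 6 stood apart in Lox (1.76 TPM, nearest 0.209) and Timp1 (0.879 TPM, nearest 0.299). Male LFD vehicle replicate 5 stood apart in Col4a1 (17.7 TPM, nearest 11.5) and Col4a2 (17.3 TPM, nearest 11.9). Female HFD mixture replicate 6 stood apart in Tgfb1 (10.2 TPM, nearest 7.19). Female LFD mixture replicate 2 stood apart in Col14a1 (15.8 TPM, nearest 28.3). Female LFD vehicle replicate 1 stood apart in Ccdc80 (7.67 TPM, nearest 10.2). Female LFD vehicle replicate 2 stood apart in Loxl2 (0.759 TPM, nearest 1.58). Female LFD vehicle replicate 4 stood apart in Timp1 (0.474 TPM, nearest 0.178). Male HFD mixture replicate 5 stood apart in Ccdc80 (33 TPM, nearest 23.4). Male HFD vehicle replicate 1 stood apart in Loxl2 (2.37 TPM, nearest 2.71). Male HFD vehicle replicate 3 stood apart in Col1a2 (9.79 TPM, nearest 12.2). Male LFD mixture replicate 1 stood apart in Fbn1 (1.08 TPM, nearest 0.753). Male LFD mixture replicate 4 stood apart in Col6a2 (1.56 TPM, nearest 1.99).

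The diet change differed between the sexes by a test of the difference itself (limma, adjusted over all genes tested): 30 members in vehicle and 32 in mixture livers passed, all with a smaller change in females. The 6 members of smallest p in vehicle livers were Col4a1 (-1.51), Ccdc80 (-1.17), Col4a2 (-1.45), Reln (-0.94), Col14a1 (-1.12) and Col6a3 (-1.10), and in mixture livers Ccdc80 (-1.57), Dcn (-1.12), Col5a2 (-1.28), Col4a1 (-1.62), Col1a2 (-2.00) and Col6a1 (-1.46), each as female minus male log2 change.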

How the results depend on the processing

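Of 167 member calls, 146 were kept with trimmed-mean scaling, 149 with no filter on low values, 163 with a pseudocount of 0.1, 155 in fits of the compared groups, 166 with the replicate number as a block and 159 without the 3 libraries with muscle transcripts, and 0 called values changed sign in these settings. Counts per comparison stayed within 1.5 times of those reported under all 6, and the mixture comparisons stayed at 0. Those counts cover all members, and with trimmed-mean scaling 21 calls were lost and 2 gained. For the 6 members of smallest p in each comparison (90 values, 534 under the alternatives), 525 kept their direction and side of the threshold and 9 lost the call (Fbn1, Col4a1, Col1a1, Col15a1 and Ecm1 in the female diet comparisons, and Timp1 between the sexes on HFD); 0 reversed. Leaving out 1 library at a time gave 0 to 2 members called for the mixture in HFD males, 0 to 1 for mixture by diet in males (Lum, without HFD mixture replicate 2) and 3 to 6 for HFD in mixture females. The replicate number was not treated as a pairing. Correlations of same-numbered livers ran from -0.21 to 0.44, and in no comparison were all 6 pairs over 0.1. For diet, 3, 2, 3 and 4 of 6 livers correlated best with their own number. The order is vehicle males, mixture males, vehicle females and mixture females. In the other comparisons 0 to 2 did, so a partial pairing was not settled. With the block, 34 members were called for HFD in mixture males and 29 in vehicle males. Leaving Timp1 out of the diet and sex counts, an alternative chosen after seeing the data, kept all 7 within 1.5 times. The table gives no depth, so the precision of low genes such as Timp1 and Lox is unknown.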
